A study of Mus musculus with 34 samples.

Results

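The genes described here copy DNA in S phase and repair it. They are 44 genes chosen by name: the subunits that license and unwind replication origins, the sliding clamp and its loader, the replicative polymerases, the enzymes that finish the lagging strand, and a set of repair, checkpoint and chromatin-copying factors. All 44 were measured, of 21979 genes tested in all. Of these, 40 were found by their symbol on the array and 4 (Cdc45, Orc1, Orc2 and Orc6, named Cdc45l, Orc1l, Orc2l and Orc6l there) by their transcript accession.

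The study compared liver tumors driven by switchable transgenes, livers in which the transgenes had been switched off, and normal mouse liver on 34 Agilent arrays in 10 groups. The 3 control livers carried no transgene and received no doxycycline. End-stage tumors, also without doxycycline, carried c-Myc (7 arrays, called Myc tumors here), TGFα (3) or both (3, called TGFα/Myc tumors). Livers of each of the 3 transgene kinds were taken after 4 or 12 weeks on doxycycline, which turns the transgenes off, with 3 arrays in each of these 6 groups. The transgene mice were labelled without a promoter, an age or a sex, so none of these can be set beside the values. The labels give the strain, C57BL/6, only for the pooled reference liver of both sexes that was hybridised in Cy5 on every array. Each array is labelled a biological replicate, but 1 number occurs in the names of both Myc tumor 3 and Myc tumor 4, and p-values measure the spread between these samples.

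Before a cell divides, the origin recognition complex, Cdc6 and Cdt1 load rings of Mcm2 to Mcm7 onto DNA. In S phase, Mcm10, Cdc45 and the GINS complex turn these rings into the active helicase, and polymerases held by the Pcna clamp copy both strands. E2F transcription factors switch on many of these genes at the entry into S phase. The adult liver is mostly quiescent, and its cells re-enter the cycle after injury or under a growth-promoting oncogene such as Myc.

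The promoters of the members were searched for short motifs in RefSeq sequence of the mouse build GRCm38.p6, in windows of 300 bases from 250 before to 50 after each listed start. Entries were found for 37 of the 44 members, with 46 promoters; Mcm4, Gins1, Gins2, Rfc2, Prim2, Pole and Exo1 had none. The 4 E2F motifs searched on both strands were TTTCGCGC, TTTGGCGC, TTTCCCGC and TTTGCCGC, which can overlap where a stretch matches on both strands. At least 1 of them stood in 16 of the 46 member promoters (34.8%), against 744 of 32851 promoters of all genes (2.26%). The sequences shown are the 250 bases before the start, 5′ to 3′ on the gene's strand, with E2F matches in capitals. They are the promoters of the licensing members Mcm6 and Mcm5, which lie among the largest differences below, of Uhrf1 and of Mcm10. Uhrf1, a methylation-copying member, is shown at the later of its 2 listed starts, which holds its only match. Mcm10 moved opposite to the others. The licensing member Mcm2, whose difference is larger than that of Mcm5, is not shown. Its promoter held none of the 4 E2F motifs, so the sequences shown do not stand for the members as a set.
Mcm6, minus strand, chr1:128359706-128359955: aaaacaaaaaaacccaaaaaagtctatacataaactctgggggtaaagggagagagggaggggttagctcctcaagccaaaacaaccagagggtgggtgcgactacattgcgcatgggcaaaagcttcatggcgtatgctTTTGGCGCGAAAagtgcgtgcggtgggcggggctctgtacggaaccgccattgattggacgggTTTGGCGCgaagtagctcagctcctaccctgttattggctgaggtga
Mcm5, plus strand, chr8:75109259-75109508: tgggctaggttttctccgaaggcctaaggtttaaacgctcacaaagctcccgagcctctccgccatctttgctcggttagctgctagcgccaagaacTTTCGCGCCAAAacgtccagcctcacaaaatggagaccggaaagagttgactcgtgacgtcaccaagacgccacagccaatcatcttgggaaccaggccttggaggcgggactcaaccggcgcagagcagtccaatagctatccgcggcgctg
Uhrf1, plus strand, chr17:56304063-56304312: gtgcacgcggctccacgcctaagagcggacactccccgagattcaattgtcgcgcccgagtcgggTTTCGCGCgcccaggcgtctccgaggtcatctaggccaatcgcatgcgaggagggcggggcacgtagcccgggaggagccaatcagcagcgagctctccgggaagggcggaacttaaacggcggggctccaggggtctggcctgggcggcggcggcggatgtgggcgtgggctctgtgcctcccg
Mcm10, minus strand, chr2:5012792-5013041: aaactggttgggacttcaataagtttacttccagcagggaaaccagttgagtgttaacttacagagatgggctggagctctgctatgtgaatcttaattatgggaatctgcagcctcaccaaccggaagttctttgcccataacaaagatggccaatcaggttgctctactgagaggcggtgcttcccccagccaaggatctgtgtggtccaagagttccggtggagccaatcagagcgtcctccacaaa
The Mcm6 promoter held 3 matches, 2 of them overlapping on opposite strands, and the Mcm5 promoter held 2 that overlap in the same way. Uhrf1 held 1 match, and the Mcm10 sequence held none of the 4 letter strings. A match describes letters only; no binding was measured here. The E-box CACGTG, the core sequence to which Myc and Max bind, stood in 6 of the 46 member promoters (13%) and in 7.15% of all promoters. The CCAAT box stood in 29 of 46 (63%) against 37.4%, and TTTGAA, the CHR element of late cell cycle genes, in 5 of 46 (10.9%) against 17.9%. The median log2 difference between Myc tumors and control livers was 1.50 over the 16 members with an E2F match, 1.47 over the 21 without and 1.95 over the 7 without an entry.

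Each value below is log2 of the sample over the reference liver, so 0 means the level of pooled normal liver, and a difference is the first group minus the second. Levels of different members are not compared with each other, since each was read by its own probe. A gene was called where limma's test, two-sided and fitted over 31 arrays, gave a Benjamini-Hochberg adjusted p under 0.05. Shares of all genes beside a count of members belong to this fit, and counts under other settings stand without such a share. TGFα tumors 2 and 3 and replicate 1 of the livers off TGFα for 4 weeks lay on a slide whose reference channel had another profile, and they were kept out of every test. Between 43.7% and 71.9% of the probes on an array were well above background, and precision is limited by how many arrays a group has. There were 16 slides and 12 scan days. Another scanner, used on separate days, read Myc tumors 2 to 7 alone, so day and group cannot be told apart for these arrays. Control 2, Myc tumor 1 and all livers off Myc for 4 weeks shared scan day 1, and control 1 shared day 7 with TGFα/Myc tumors 1 and 2.

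The Myc probe differed between tumors of the same label. It read 2.50 on Myc tumor 1, where it was saturated, 5.16 to 6.25 on 5 of the others and 1.04 on Myc tumor 5, against -1.07 to 0.17 on the controls. On the TGFα/Myc tumors it read 4.65, 5.48 and 0.83 (replicate 3), and on the livers off both transgenes for 4 weeks 1.35, 1.06 and 0.61. The proliferation marker Mki67 was also low in Myc tumor 5, at 0.35, against 3.33 to 4.41 in the other Myc tumors. Results that rest on these tumors are therefore also given without Myc tumor 5 and TGFα/Myc tumor 3, a choice made after the values were seen.

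Replication genes were high in Myc tumors. Of the 44 members, 39 were higher in Myc tumors than in control livers and 1, Mcm10, was lower, beside 18.8% higher and 17.1% lower (35.9% either way) among all genes. The median difference over the members was 1.50, against -0.02 over all genes. In 23 members every Myc tumor lay above every control (10.8% of all genes), and in Mcm10 every Myc tumor lay below (10.8% of all genes). The count of 39 includes Cdc6 and Orc1, and that of 23 includes Cdc6. Both genes were kept for testing only through tumor arrays, so they add no support to these counts. The 4 members not called were Rfc1 at 0.60 (adjusted p = 0.0558), Chaf1b at 0.92 (0.0863), Msh6 at 0.46 (0.158) and Rpa3 at 0.22 (0.636). In whole tissue, more cells in S phase and more RNA per cell cannot be told apart, and likewise fewer cells and less RNA per cell.

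**Figure D1:**
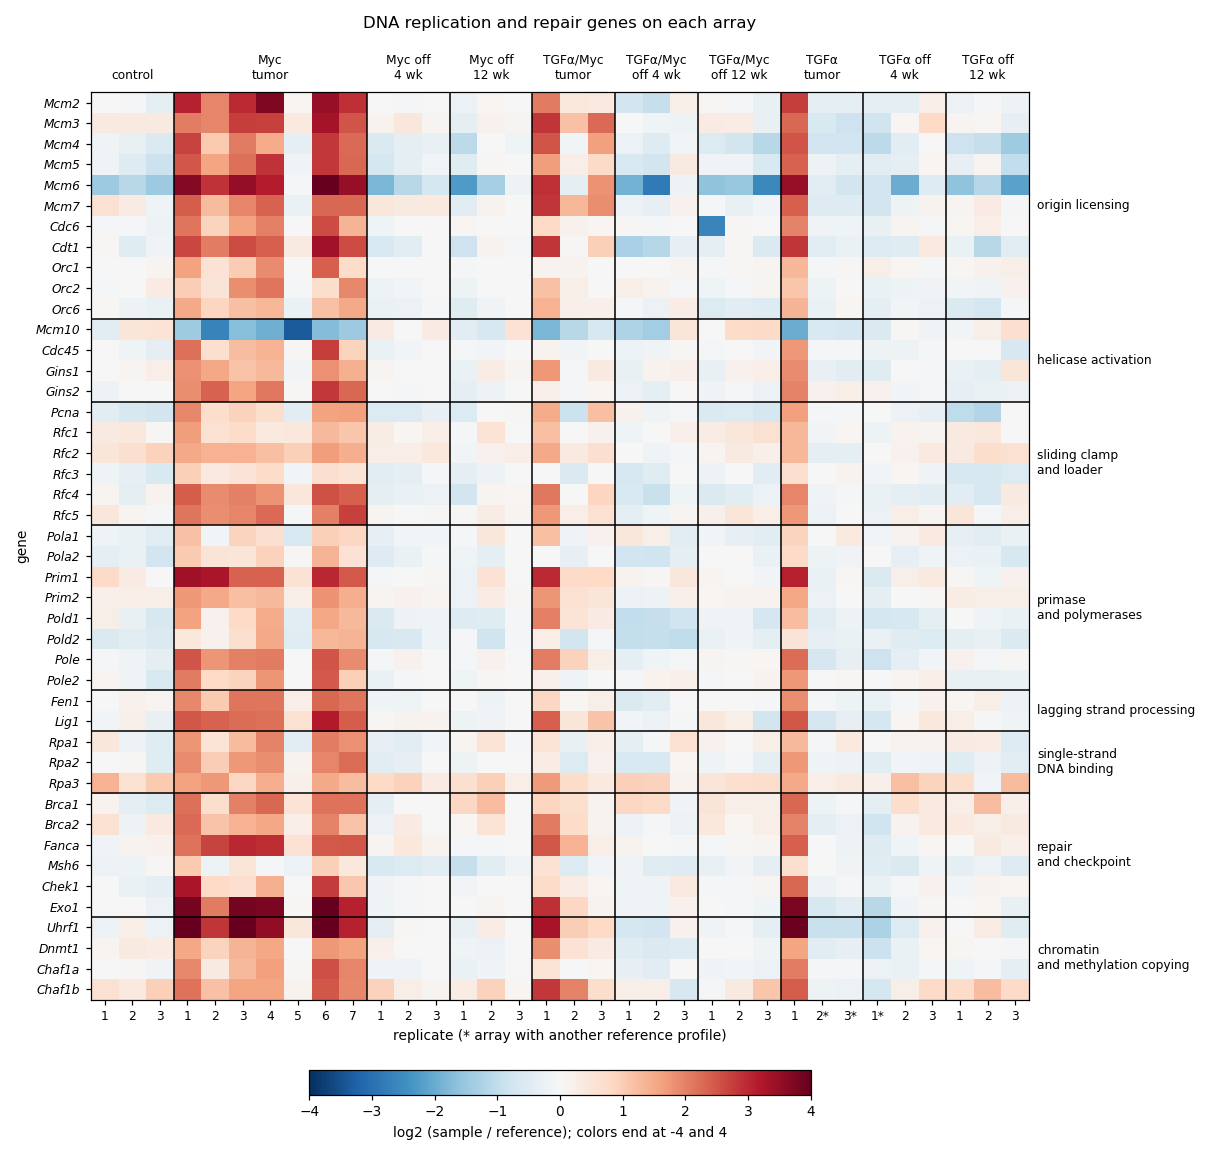
Log2 of sample over reference for the 44 members (rows, ordered by role) on the 34 arrays (columns, by group), with colors ending at -4 and 4; starred arrays have the other reference profile. Most rows are high in the Myc tumors other than replicate 5, in TGFα/Myc tumor 1 and in TGFα tumor 1, and Mcm10 is low there.

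The licensing genes held the largest single difference. All 11 rose in Myc tumors, with a median of 1.88. Mcm6, a subunit of the helicase ring, read -1.46, -1.11 and -1.45 in the 3 controls and -0.04, 3.48 and 4.47 at the lowest, median and highest of the 7 Myc tumors. The groups did not overlap, and Myc tumor 5 was the lowest. The difference was 4.36 (SE 0.74, 20.5-fold, limma adjusted p = 9.42e-05). Mcm2 read -0.03, -0.04 and -0.39 in controls and 0.09 to 3.73 in Myc tumors, with a median of 2.98, and rose by 2.75 (SE 0.50, adjusted p = 0.000203). Mcm2 shared the pattern of Mcm6, with Myc tumor 5 just above the controls and the others far above. Mcm5 rose by 2.54, Mcm4 by 2.06, Mcm3 by 1.88 and Mcm7 by 1.50. Of the loading factors, Cdt1 rose by 2.48, and Orc2 and Orc6 by 1.06 and 1.19. Cdc6, which loads the ring together with Cdt1, and Orc1, the largest subunit of the origin recognition complex, were well above background in 6 of 7 Myc tumors and in no control. Both were kept for testing only through tumor arrays, where they were high, so their calls give no support of their own. Orc1 was at least 1.99-fold higher in Myc tumors (adjusted p = 0.0043). This bound starts from the mean signal of the tumors. On each control array it takes the dimmest signal that counts as well above background, or the probe's own signal if that was higher. For Cdc6 no bound is given, since the probe's own signal all but set it. Its measured ratio to the reference was 3.12-fold higher in Myc tumors (adjusted p = 0.0058). Bounds use the sample channel after loess and Aquantile and are open to dye bias.

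Of the 4 helicase-activating genes 3 rose and the other fell. Gins2, a GINS subunit, read -0.20, -0.02 and -0.02 in controls and 0.06, 2.10 and 2.84 at the lowest, median and highest of the Myc tumors. The groups did not overlap, and the difference was 1.95 (SE 0.32, adjusted p = 7.14e-05). Cdc45, which binds the helicase ring, rose by 1.47 and Gins1 by 1.15. The Cdc45 probe was well above background on only 1 of the 3 controls. Mcm10, which joins the helicase as it starts to unwind DNA, read -0.45, 0.48 and 0.56 in controls and -3.35, -1.73 and -1.42 at the lowest, median and highest of the Myc tumors. Every Myc tumor was below every control, and Myc tumor 5 was the lowest here too, although it stood near the controls for most other members. Mcm10 fell by 2.24 (SE 0.41, 4.71-fold lower, adjusted p = 0.000213). It was read by a single probe, well above background on all 31 arrays, whose match to the Mcm10 transcript was not checked here. The direction was kept under each scaling tried, while the call was lost with median centring of each array (-1.83, adjusted p = 0.0766), with scan day as a block (-1.90, 0.0557), within scan day 1 (-1.90, 0.0556) and with the first scanner only (-1.62, 0.0629).

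At the clamp and its loader, 5 of 6 genes rose, with a median of 1.26. Rfc4, a small subunit of the loader, read 0.10, -0.39 and 0.14 in controls and 0.45, 2.00 and 2.54 at the lowest, median and highest of the Myc tumors. These groups did not overlap, and the difference was 1.98 (SE 0.37, adjusted p = 0.000286). Pcna, the clamp itself, rose by 1.61, Rfc5 by 1.68, Rfc3 by 0.90 and Rfc2 by 0.68. Rfc1, the large subunit of the loader, read 0.37, 0.43 and 0.05 in controls and 0.40, 0.74 and 1.66 at the lowest, median and highest of the Myc tumors, and the groups overlapped.

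All 8 primase and polymerase genes rose, with a median of 1.21. Pola2, the accessory subunit of the polymerase that lays down primers, read -0.35, -0.28 and -0.77 in controls and 0.04, 0.57 and 1.37 at the lowest, median and highest of the Myc tumors. Its groups did not overlap, and it rose by 1.17 (SE 0.20, adjusted p = 8.84e-05). Prim1, the catalytic primase subunit, rose by 2.11 and Pole, the leading-strand polymerase, by 2.03. The smallest difference of the 8 was that of Pola1, at 0.82 (adjusted p = 0.0355).

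Both genes that finish the lagging strand rose. Lig1, the ligase that seals the fragments, read -0.12, 0.19 and -0.31 in controls and 0.60, 2.37 and 3.18 at the lowest, median and highest of the Myc tumors. No tumor overlapped the controls, and the difference was 2.29 (SE 0.37, adjusted p = 6.23e-05), the lowest adjusted p of the 44 members. Fen1, the flap nuclease, rose by 1.61. Of the subunits of RPA, which coats single-stranded DNA, Rpa1 rose by 1.37 and Rpa2 by 1.67. Rpa2 read 0.01, 0.06 and -0.47 in controls and 0.13, 1.85 and 2.22 at the lowest, median and highest of the Myc tumors, again without overlap (SE 0.30, adjusted p = 0.000166). Rpa3, the smallest subunit, read 1.38, 0.60 and 1.06 in controls and 0.21, 1.46 and 1.72 at the lowest, median and highest of the Myc tumors, and the ranges overlapped widely.

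Of the 6 repair and checkpoint members 5 rose, with a median of 1.83 over the 6. Fanca, a subunit of the Fanconi anemia core complex that acts on DNA crosslinks, read -0.14, 0.14 and 0.18 in controls and 0.59, 2.47 and 3.02 at the lowest, median and highest of the Myc tumors. The groups did not overlap, and the difference was 2.28 (SE 0.38, adjusted p = 7.19e-05). Exo1, a nuclease of mismatch repair and of break resection, rose by 3.08 (SE 0.60, adjusted p = 0.000376). Brca1 and Brca2, which act in homologous recombination, rose by 2.00 and 1.14, and the checkpoint kinase gene Chek1 by 1.66. Among the 3 controls, Exo1 was well above background on 2 and Chek1 on 1. Msh6, which recognises mismatches, read -0.24, -0.21 and 0.06 in controls and -0.24, 0.43 and 1.04 at the lowest, median and highest of the Myc tumors, so its groups overlapped.

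Among the factors that copy chromatin and methylation, 3 of 4 rose. Uhrf1, which binds hemimethylated DNA and recruits the methyltransferase Dnmt1, read -0.22, 0.23 and -0.22 in controls and 0.45, 3.56 and 4.71 at the lowest, median and highest of the Myc tumors. The groups did not overlap, and Uhrf1 rose by 3.37 (SE 0.60, 10.4-fold, adjusted p = 0.000165). Dnmt1 rose by 0.99 and Chaf1a, the large subunit of chromatin assembly factor 1, by 1.44. Chaf1b, another subunit of that factor, read 0.62, 0.39 and 0.95 in controls and 0.13, 1.57 and 2.49 at the lowest, median and highest of the Myc tumors. Myc tumor 5 was here below every control.

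Members with more than 1 probe numbered 14, and 10 of their 15 other probes had the same sign of difference as the probe used. The 5 that did not belonged to Fanca, Mcm4, Pola2 and Pole and were dim on most arrays. The same sign did not always mean a like size. Another Brca1 probe differed by 0.38 against 2.00, and another Brca2 probe by 0.11 against 1.14. These were well above background on 5 and 10 arrays. Another Gins1 probe differed by 1.42 against 1.15.

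**Figure D2:**
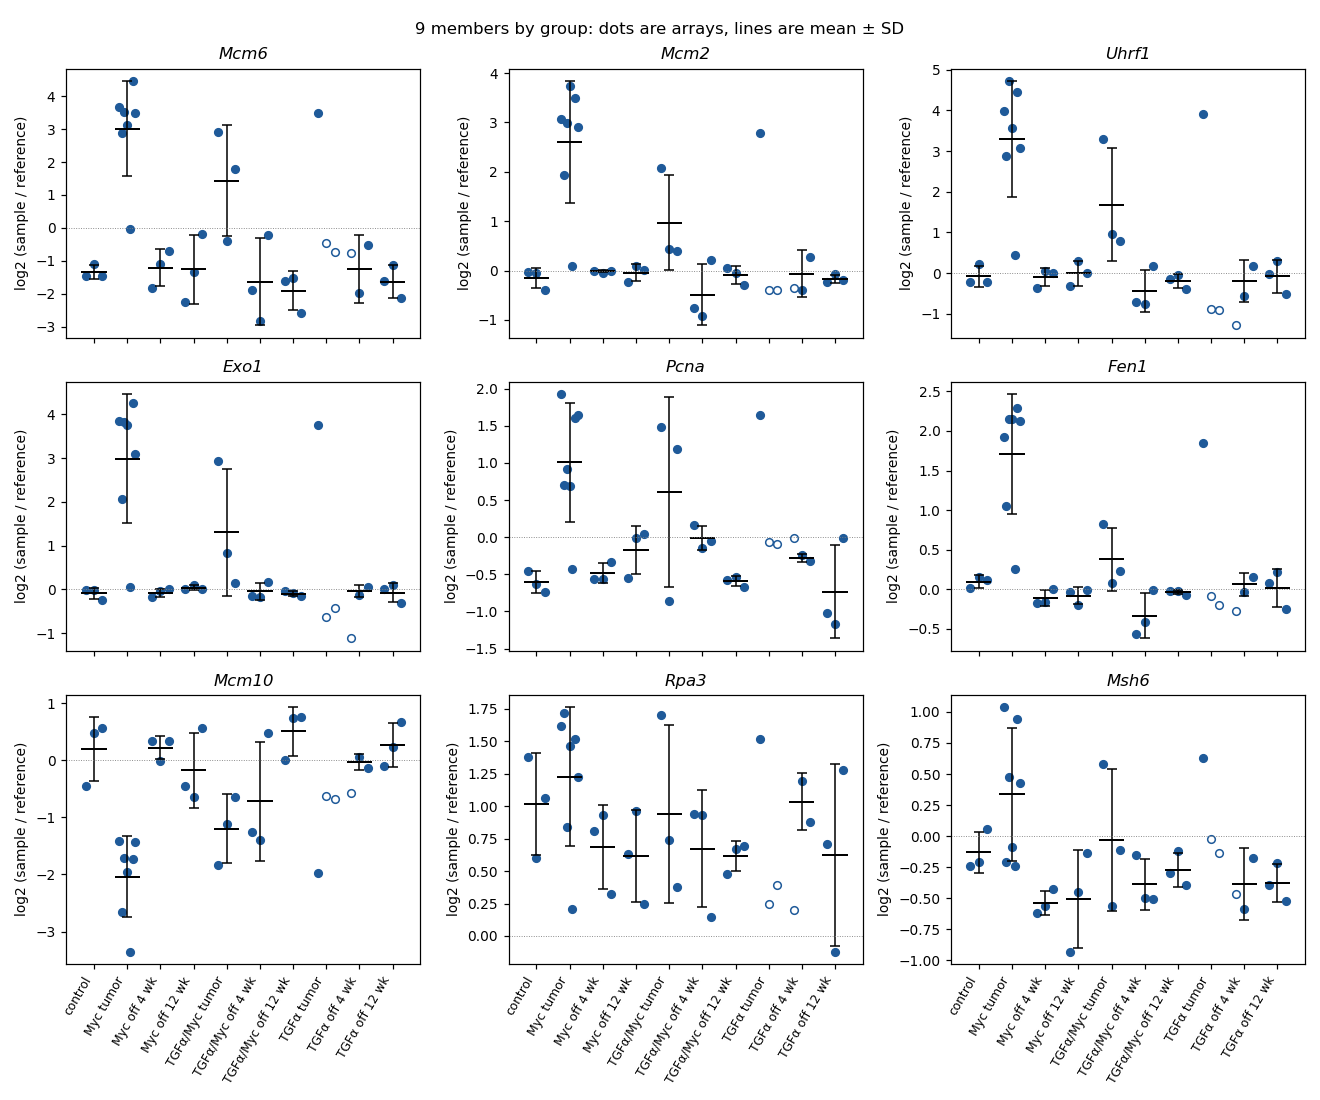
Log2 of sample over reference of 9 members by group; dots are arrays and bars the mean ± SD of the arrays in the tests. Mcm6, Mcm2, Uhrf1, Exo1, Pcna and Fen1 are high in the Myc tumors and near the controls in all livers off a transgene, Mcm10 is low in tumors, and Rpa3 and Msh6 overlap between tumors and controls.

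Myc tumor 5 stood near the control livers. The median over the 44 members was 0.03 on that array, against 1.04 to 2.30 on the other 6 Myc tumors and -0.18 to 0.00 on the controls. It had 23 members above the highest control, where the other Myc tumors had 41 to 43. The share of all genes above the highest control on a single array was not computed. Without Myc tumor 5 the difference grew to 4.87 for Mcm6, 3.85 for Uhrf1, 3.57 for Exo1 and 3.17 for Mcm2, and that of Mcm10 was -2.02. Within scan day 1, where Myc tumor 1 met control 2 and each single array was assumed to vary like those of other days and groups, 22 members were called, all higher, and the median difference was 1.94. Mcm2 was then 3.11 (adjusted p = 0.0323) and Exo1 3.86 (0.0337), while Mcm6 at 4.77 (0.052) and Uhrf1 at 3.75 (0.0652) were as large as over all days but not called.

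**Figure D3:**
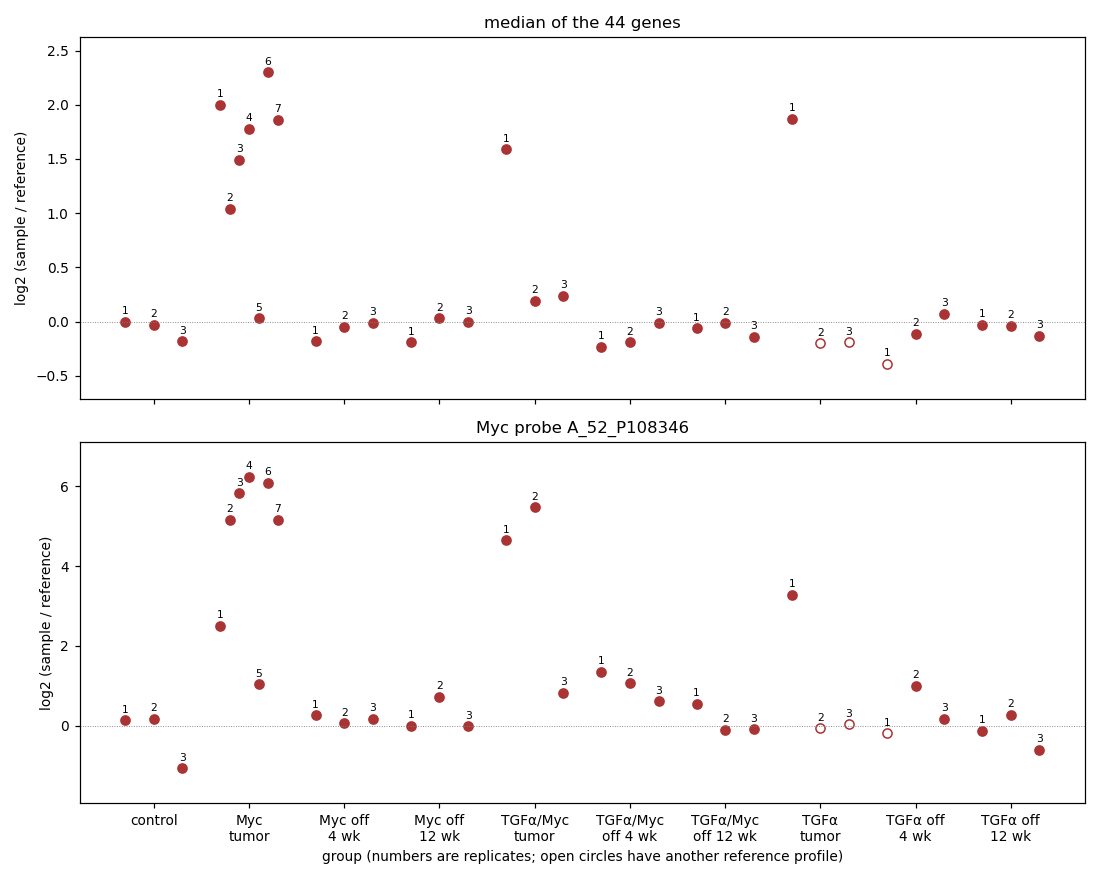
Median of log2 sample over reference over the 44 members on each array, by group, with open symbols for the arrays of the other reference profile. The Myc tumors lie between 0.03 (replicate 5) and 2.30, the TGFα/Myc tumors between 0.19 and 1.59, and the controls and the livers off a transgene, those of the other profile included, between -0.39 and 0.07.

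Markers of other cells moved with this comparison. Mki67 rose by 3.84 (adjusted p = 6.09e-05) and Top2a, the topoisomerase of dividing cells, by 2.04 (0.000258). Of 7 measured hepatocyte markers 4 fell and none rose, and their median per array ran from -3.13 to 0.05 in Myc tumors and from -0.29 to 0.53 in controls. Of 5 endothelial markers 3 fell, with array medians of -2.02 to -0.81 against -0.22 to 0.16. The 3 measured neutrophil markers rose, with medians of 0.72 to 4.95 against 0.32 to 0.61. Of 5 macrophage markers 1 rose and 2 fell, of 6 stellate and fibroblast markers 1 rose and 2 fell, of 5 lymphocyte markers 2 fell, and of 5 biliary markers 1 fell. The B lymphocyte marker Cd79a was well above background on no control, and the part of these cells in the values of the members was not tested.

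A list of 93 other replication, repair and S phase genes gave 91 measured genes, of which 64 were higher and 5 lower in Myc tumors than in controls, with a median of 0.83. By sublist, 12 of 16 origin and helicase genes were higher, 9 of 15 polymerase and fork genes, 23 of 29 repair genes, 8 of 10 chromatin and cohesion genes and 12 of 21 genes of E2F and S phase entry. The lowest p-values were those of Rnaseh2b, a subunit of the nuclease that removes RNA from DNA, at 2.00 (SE 0.21, adjusted p = 4.58e-07), and of Rbbp7, a histone-binding chaperone, at 2.87 (5.22e-07). They were followed by Ccne1, the cyclin of S phase entry, at 2.29 (1.18e-05) and by Asf1b, a histone chaperone, at 2.83 (2.13e-05). The 5 that were lower were Rbl2, a relative of the retinoblastoma protein, at -0.89, Rbbp4 at -0.87, Atad5 at -0.78, E2f6, an E2F that represses, at -0.44 and Mcm9 at -0.30.

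After the Myc transgene was turned off, the members were low again. In livers off Myc for 4 weeks 41 of 44 were lower than in Myc tumors and 1, Mcm10, was higher, beside 17.5% lower and 14.2% higher among all genes (31.7% either way). After 12 weeks the counts were again 41 and 1, beside 16.5% and 15.0% (31.5% either way). The median difference was -1.50 at 4 weeks and -1.38 at 12 weeks. In 22 members every liver off Myc for 4 weeks was below every Myc tumor (11.1% of all genes), and in 17 members every liver off for 12 weeks was (8.60%). Mcm10 alone lay above at both times, beside 10.9% and 10.4% of all genes. Cdc6 and Orc1, kept only through tumor arrays, are in both counts of 41, and Cdc6 is among the 22. They add no support to these counts. These comparisons share the Myc tumors with the one above, so their values stand side by side and are not independent.

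Mcm6 read -1.82, -1.10 and -0.70 after 4 weeks off Myc and -2.26, -1.34 and -0.19 after 12 weeks, all below the lowest Myc tumor at -0.04. It fell by 4.22 (SE 0.74, adjusted p = 0.000167) at 4 weeks and by 4.28 (SE 0.74, adjusted p = 0.000137) at 12 weeks. Uhrf1 read -0.35, 0.06 and 0.01 and then -0.31, 0.31 and 0.00. All 6 values lay below the lowest Myc tumor at 0.45, and Uhrf1 fell by 3.40 and by 3.30. Lig1 read 0.05, 0.15 and 0.13 after 4 weeks, then -0.19, -0.13 and -0.01 after 12 weeks, and fell by 2.10 and 2.32. Rfc2, a loader subunit with a small difference between tumors and controls, read 0.28, 0.25 and 0.43 at 4 weeks and -0.10, 0.18 and 0.28 at 12 weeks, below the Myc tumors at 0.95 to 1.66. It had the lowest adjusted p of the members at 12 weeks (fell by 1.24, SE 0.17, adjusted p = 1.23e-05). Cdc6 and Orc1 were not well above background in any liver off Myc. By the rule given above, Orc1 was at least 1.89-fold higher in Myc tumors than in livers off for 12 weeks. No bound is given for Orc1 at 4 weeks or for Cdc6, since the probe's own signal set it. The measured ratio of Orc1 to the reference was 2.25-fold higher in Myc tumors than in livers off for 4 weeks. For Cdc6 the measured ratios were 2.99-fold and 2.81-fold higher in Myc tumors at 4 and 12 weeks.

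Mcm10 moved the other way. It read 0.33, -0.02 and 0.34 after 4 weeks and -0.46, -0.64 and 0.57 after 12 weeks, all above the highest Myc tumor at -1.42. The differences were 2.26 (SE 0.41, adjusted p = 0.000239) and 1.86 (SE 0.41, adjusted p = 0.00132). Pola1 and Rpa3 were not called at either time: Pola1 differed by -0.71 (adjusted p = 0.0726) and -0.41 (0.33), and Rpa3 by -0.54 (0.209) and -0.62 (0.15). Msh6, Rfc1 and Chaf1b, which were not called between tumors and controls, were called lower at both times, at -0.87, -0.67 and -1.14 after 4 weeks and -0.84, -0.73 and -1.15 after 12 weeks.

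Slide 1 held Myc tumor 1 and a liver off Myc for 4 weeks, and within it 19 members were called, all lower, with a median of -2.10; this sets 1 array against 1, with the spread taken from the other arrays. For the livers off for 12 weeks the count fell from 42 to 19 with median centring and to 3 with scan day as a block, where the median difference was -1.97. Of the 91 other replication genes, 63 fell and 2 rose at 4 weeks, and 61 fell and 2 rose at 12 weeks. Rbbp7 fell by 2.49 and 2.43, Ccne1 by 2.21 and 2.86. Of the 7 hepatocyte markers 6 rose at 4 weeks and 3 at 12 weeks, of the 5 endothelial markers 3 rose at each time, and of the 3 neutrophil markers 2 fell at 4 weeks and 3 at 12 weeks. Their part in the values of the members was not tested.

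**Figure D4:**
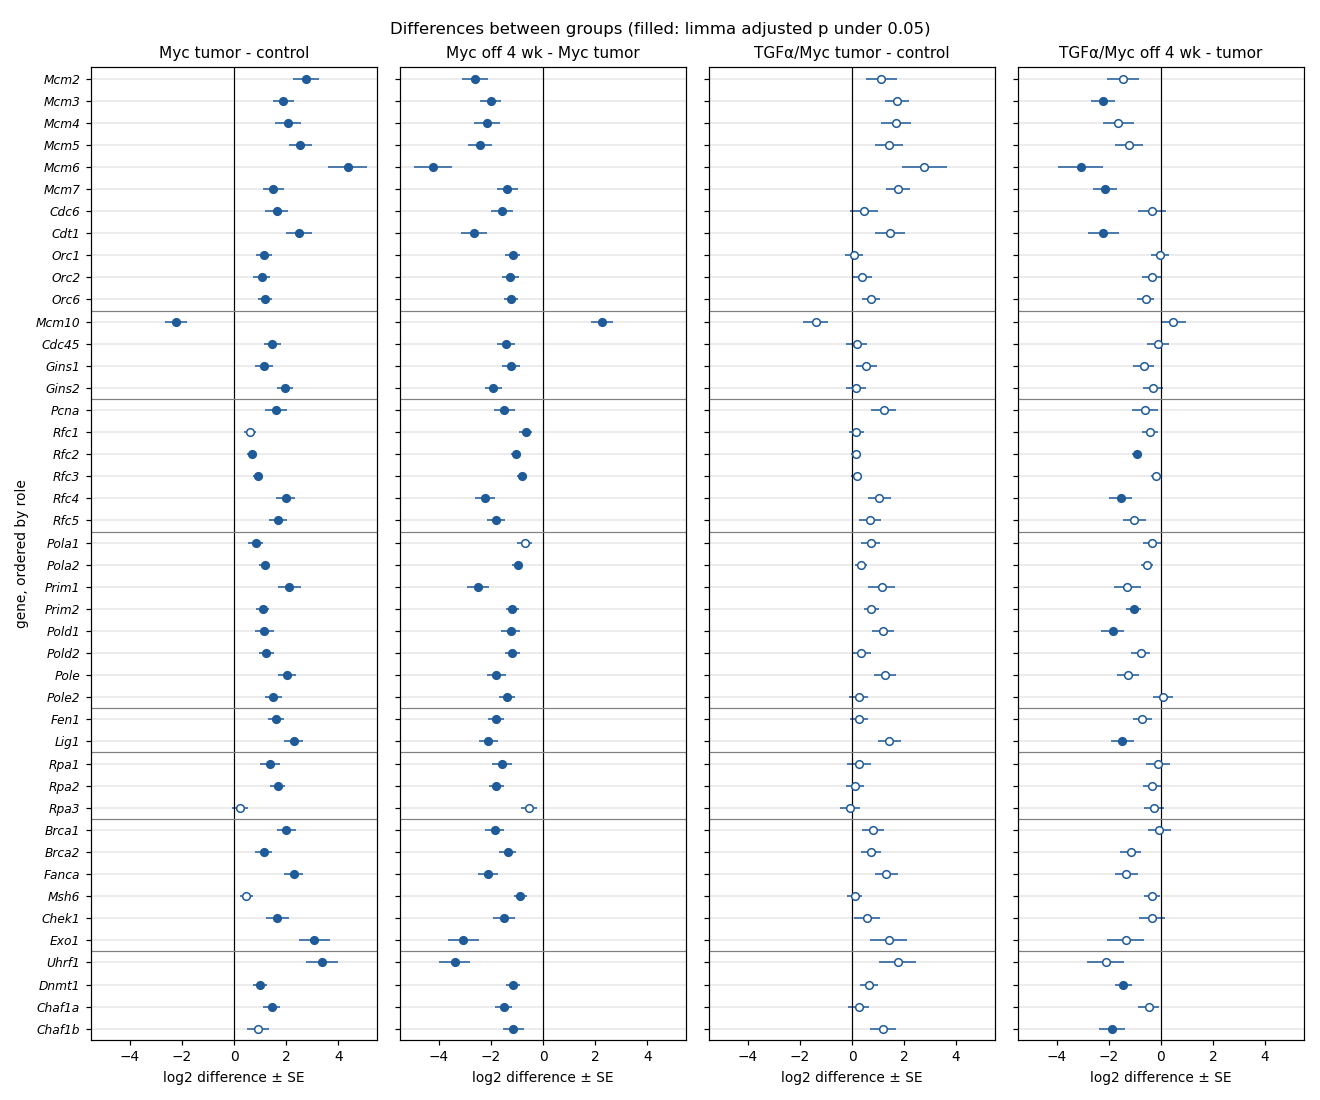
Log2 difference ± SE of each of the 44 members in 4 comparisons: Myc tumors minus controls, livers off Myc 4 weeks minus Myc tumors, TGFα/Myc tumors minus controls, and livers off both 4 weeks minus TGFα/Myc tumors; filled points have a limma adjusted p under 0.05. Filled points number 40, 42, 0 and 11, and Mcm10 lies opposite to the other members in both Myc panels.

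The TGFα/Myc tumors were uneven, and no member passed the test against controls. Of the 44 differences 42 were positive, with a median of 0.70. By adjusted p none was called, beside 2.13% of all genes. An unadjusted limma p under 0.05 was found for 18 members, among them Mcm10 with a negative difference of -1.40. The share of all genes at that unadjusted threshold is not given here, so this count has no background beside it. In 18 members every TGFα/Myc tumor was above every control (9.20% of all genes), and Mcm10 was below in each (11.9%). Cdc6, kept only through tumor arrays, is among these 18. The median over the members was 1.59 on TGFα/Myc tumor 1, 0.19 on replicate 2 and 0.24 on replicate 3. Above the highest control lay 43, 23 and 30 members, and the share of all genes was not computed for single arrays. Mki67 read 4.09, 2.11 and 1.68 on the 3 tumors, a difference of 2.89 (adjusted p = 0.0382), while Top2a differed by 0.44 (0.797).

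The ring subunits came nearest to a call. Mcm7 read 2.85, 1.34 and 1.86 in the TGFα/Myc tumors against 0.61, 0.33 and -0.16 in controls. It differed by 1.76 (SE 0.47, adjusted p = 0.053), with every tumor above every control. Mcm3 read 2.87, 1.17 and 2.26 against 0.37, 0.37 and 0.36 and differed by 1.73 (SE 0.47, adjusted p = 0.0546), again without overlap. Another kept Mcm3 probe, well above background on 26 arrays, differed by only 0.39. Mcm6 read 2.92, -0.39 and 1.79 and differed by 2.78 (SE 0.87, adjusted p = 0.102), with replicate 2 nearest the controls. Gins2 read 0.21, -0.05 and 0.08, a difference of 0.16, and its groups overlapped. Rpa2 overlapped too, at 0.31, -0.55 and 0.16, a difference of 0.11. The medians by role ran from 1.41 in licensing, 0.92 in chromatin copying, 0.85 in lagging strand, 0.77 in repair and 0.72 in polymerases to 0.44 in the clamp and loader, 0.17 in helicase activation and 0.11 in single-strand binding.

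This result turned on how the arrays were processed and on which tumors entered. Called members numbered 21 with Agilent's processed signals, 18 with the series matrix values, 17 without background subtraction and 16 with the sample channel alone, all higher. The share of all genes called in each of these settings is not given here, so these counts have no background beside them. They numbered 6 without TGFα/Myc tumor 2, 3 without TGFα/Myc tumor 3 and 18 (17 higher, 1 lower) without the tumors of low Myc probe. With the first scanner only there were 11. Within scan day 7, where TGFα/Myc tumors 1 and 2 met control 1, none was called and the median difference was 0.74. None of the cell marker lists given above held a called gene in this comparison. Among the 91 other replication genes 1 was higher, Ccne1 at 2.05 (adjusted p = 0.00441), and 1 lower, Fancl of the Fanconi core complex at -0.85 (0.0271).

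When both transgenes were off, some members were lower than in the TGFα/Myc tumors. After 4 weeks 11 of 44 were lower and none higher, beside 4.16% and 4.02% of all genes (8.19% either way), and the median difference was -0.75. With Agilent's processed signals 25 were lower, without background subtraction 23, and with the series matrix values or the sample channel alone 22 each. The 11 were Mcm3 (-2.23), Mcm6 (-3.08), Mcm7 (-2.15), Cdt1 (-2.21), Pold1 (-1.86), Chaf1b (-1.89), Rfc4 (-1.54), Lig1 (-1.48), Dnmt1 (-1.44), Prim2 (-1.04) and Rfc2 (-0.92). In 23 members every liver off both for 4 weeks was below every TGFα/Myc tumor (12.3% of all genes). Cdc6, well above background in none of these livers, is among them. Mcm3 read -0.03, -0.16 and -0.21 in these livers and had the lowest adjusted p (0.00479). All 3 values lay below the lowest TGFα/Myc tumor at 1.17. Dnmt1, the maintenance methyltransferase, read 1.85, 0.57 and 0.32 in the tumors and -0.48, -0.58 and -0.53 in the livers (adjusted p = 0.00809), so its groups did not overlap.

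After 12 weeks 4 members were lower and 1 higher, beside 2.41% and 2.22% of all genes (4.64% either way), with a median of -0.72. The 4 were ring subunits: Mcm3 at -1.99 (adjusted p = 0.0151), Mcm4 at -2.15 (0.0369), Mcm6 at -3.34 (0.0263) and Mcm7 at -2.18 (0.00927). With the mean of its kept probes Mcm3 was at -1.20 (limma adjusted p = 0.111) and lost its call here, but not at 4 weeks. Mcm10 read 0.01, 0.74 and 0.76 in these livers against -1.84, -1.11 and -0.65 in the tumors and was higher by 1.70 (SE 0.49, adjusted p = 0.0434). In 23 members every liver was below every tumor (13.2% of all genes), and in Mcm10 every liver was above (13.6%). The 23 include Cdc6, Gins2, Exo1 and Chaf1a, which were well above background in none of these livers. Agilent's processed signals called 27 lower and 1 higher here, the series matrix values and the arrays without background subtraction 23 lower and 1 higher each, and the sample channel alone 20 lower and 1 higher.

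Both counts rested on TGFα/Myc tumor 1. Without it, 1 member was called after 4 weeks and none after 12 weeks. The 12-week count was 9 without TGFα/Myc tumor 2, 10 without tumor 3, 2 without replicate 1 and 2 without replicate 2 of the livers off for 12 weeks, and 1 without replicate 3 of them. The 4-week count was 6 without replicate 1 and 6 without replicate 2 of the livers off for 4 weeks. Median centring left no call at either time, and the fit on only the groups compared left none either. With slide as a random block 1 member was called at 4 weeks and none at 12 weeks. Without the tumors of low Myc probe the counts were 22 and 21. Of the 91 other genes 11 fell and 1 rose at 4 weeks and 7 fell and 1 rose at 12 weeks. Ccne1 fell by 2.37 (adjusted p = 0.000589) and 2.31 (0.00105), and E2f2, an activating E2F, by 1.71 and 1.33.

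Set against each other, the 2 kinds of tumor differed in 15 members, all lower in TGFα/Myc tumors than in Myc tumors, beside 13.0% lower and 12.0% higher among all genes (25.0% either way). The median difference was -0.88. Gins2 differed by -1.79 (SE 0.32, adjusted p = 0.000452), Rpa2 by -1.56 (SE 0.30, adjusted p = 0.000748) and Fen1 by -1.33 (SE 0.30, adjusted p = 0.00246). Pola2 read -0.02, -0.33 and -0.01 in the TGFα/Myc tumors, all below the lowest Myc tumor at 0.04, and differed by -0.82 (0.00428); it was the only member whose groups did not overlap, beside 6.39% of all genes below in this way. Of the ring subunits Mcm2 was called, at -1.63 (SE 0.50, adjusted p = 0.0204). Mcm6 at -1.58 (adjusted p = 0.124), Mcm5 at -1.13 (0.0707), Mcm4 at -0.37 (0.637), Mcm3 at -0.14 (0.832) and Mcm7 at 0.26 (0.684) were not. With other signals the counts were smaller and 1 member was higher: 4 lower with Agilent's processed signals, 5 with the series matrix values and 7 without background subtraction. Fen1 lost its call in these 3 settings, at -0.46 (adjusted p = 0.452), -0.39 (0.58) and -0.51 (0.287), and Mcm2 at -0.96 (0.28), -0.94 (0.306) and -0.72 (0.343). Gins2 lost it with the processed signals (-1.41, 0.0711) and the matrix values (-1.49, 0.0926). The count was 4 without TGFα/Myc tumor 2, 9 without tumor 3, 32 without tumor 1 and 31 without Myc tumor 5. With scan day as a block it was 3, and with only the groups compared it was 1. Hepatocyte markers (4 of 7) and endothelial markers (3 of 5) were higher in the TGFα/Myc tumors and neutrophil markers (3 of 3) lower; their part was not tested.

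Whether the fall after switching off differed between the 2 kinds of liver was tested as a difference of differences. At 4 weeks 3 of the 44 members fell less in TGFα/Myc than in Myc. This is no larger a share than the 7.31% of all genes called in this direction (14.3% in either). The 3 were Brca1 (1.79, SE 0.56, adjusted p = 0.0334), Gins2 (1.61, SE 0.50, adjusted p = 0.0325) and Rpa2 (1.44, SE 0.46, adjusted p = 0.0392). Brca1 fell by 1.86 after Myc was turned off and by 0.06 after both were, Gins2 by 1.91 and by 0.30, and Rpa2 by 1.79 and by 0.35. With the mean of its kept probes the Brca1 difference was 1.06 (limma adjusted p = 0.0537) and lost its call. None of the 3 was called with Agilent's processed signals (Brca1 1.62, adjusted p = 0.115; Gins2 1.12, 0.415; Rpa2 1.33, 0.13), and none with the series matrix values, without background subtraction or with the sample channel alone (adjusted p 0.0528 to 0.37). Each of the 3 was also called lower in TGFα/Myc tumors than in Myc tumors, but Brca1, at -1.19 (adjusted p = 0.0184), was not called there with any of these 4 kinds of signal (-0.53 to -0.47, adjusted p 0.262 to 0.463). At 12 weeks Gins2 was called (1.84, SE 0.50, adjusted p = 0.0459), beside 1.41% of all genes in this direction and 2.93% in either. It was 0.38 (adjusted p = 0.867) with the series matrix values, 1.33 (0.371) with processed signals, 1.34 (0.153) without background subtraction and 1.40 (0.125) with the sample channel alone.

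These counts rested on single arrays. The 4-week count was 15 without Myc tumor 5 and 5 (4 higher, 1 lower) without TGFα/Myc tumor 1. It was 1 without TGFα/Myc tumor 3 and 1 without replicate 1 of the livers off both for 4 weeks. None was called without TGFα/Myc tumor 2, or without replicate 1 or replicate 2 of the livers off Myc for 4 weeks. The 12-week count was 13 without Myc tumor 5, 2 without TGFα/Myc tumor 1 and 1 without Myc tumor 1. Leaving out any other array of the 4 groups left no call at 12 weeks, and median centring left none at either time.

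In livers with the transgenes off the members were near the controls. No member was called in livers off Myc for 4 weeks (0.00455% of all genes), off Myc for 12 weeks (0.159%), off TGFα for 4 weeks (0.751%, 2 arrays), off TGFα for 12 weeks (0.105%) or off both for 12 weeks (0.0182%). By unadjusted limma p under 0.05 these counts were 0, 2, 0, 0 and 1. The share of all genes at that unadjusted threshold is not given here, so they have no background beside them. The median difference over the members lay between -0.07 and 0.00 in these 5 comparisons. In livers off both for 4 weeks it was -0.20, and 1 member was lower, beside 2.56% of all genes lower and 5.60% either way. That member was Rfc2, which read -0.02, -0.17 and -0.04 in these livers and 0.48, 0.65 and 0.93 in the controls. Its groups did not overlap (7 members and 13.3% of all genes lay below in this way), and it differed by -0.76 (SE 0.20, adjusted p = 0.0291). The call was lost without control 2 or 3 or without any of the 3 livers (adjusted p 0.0526 to 0.168), and with all 34 arrays in the fit, median centring, Agilent's processed signals, the series matrix values, the sample channel alone, slide as a block or only the groups compared. Without the tumors of low Myc probe 2 members were called lower. All 6 comparisons share the 3 controls.

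Rfc2 was also below the controls in livers off Myc for 12 weeks, at -0.56 (adjusted p = 0.249), and in livers off both for 12 weeks, at -0.46 (0.479), neither of them called. Brca1 read 0.82, 1.22 and 0.02 in livers off Myc for 12 weeks against 0.13, -0.40 and -0.54 in controls, a difference of 0.96 (adjusted p = 0.375), with overlap at replicate 3. Between 12 and 4 weeks no member was called, in Myc (0.00455% of all genes), TGFα (0.974%) or TGFα/Myc livers (0.892%). Unadjusted limma p-values under 0.05 numbered 0, 1 and 2, again without the share of all genes at that threshold. A p above the threshold does not show that the levels were equal. The largest difference among these was that of Mcm10 in TGFα/Myc livers, which read -1.25, -1.39 and 0.48 at 4 weeks and 0.01, 0.74 and 0.76 at 12 weeks, a difference of 1.22 (SE 0.49, adjusted p = 0.245).

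The TGFα tumors gave values only, since 1 of the 3 shared the common reference profile. On the tumor labelled TGFα replicate 1 the median over the members was 1.87, and 43 of 44 lay above the highest control. The share of all genes that did so on this array was not computed. Mcm6 read 3.48, Uhrf1 3.91, Exo1 3.75 and Mcm2 2.78, each within the range of the Myc tumors, and Mcm10 read -1.97. Its Myc probe read 3.28 and was saturated, Mki67 read 4.68, and its median over the neutrophil markers was 4.67. TGFα tumors 2 and 3, on the slide of the other reference profile, had member medians of -0.20 and -0.19, and replicate 1 of the livers off TGFα for 4 weeks, on the same slide, had -0.39. Mcm6 read -0.46 and -0.74 on these tumors and -0.76 on that liver, and Mcm10 -0.62, -0.68 and -0.57. On this slide the tumors and the liver were thus close to each other in both genes, but not in every member. Exo1 read -0.64 and -0.43 on the tumors and -1.12 on the liver, and Uhrf1 -0.88, -0.90 and -1.28. Pcna, at -0.06, -0.09 and -0.01, was close again. No test was made with 1 liver. In the 2 other livers off TGFα for 4 weeks Mcm6 read -1.99 and -0.51, and in those off for 12 weeks -1.62, -1.13 and -2.14, around the controls.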

How the data were processed

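RNA of 34 mouse liver or liver tumor samples was measured on 2-color Agilent arrays, the sample in Cy3 and the reference in Cy5. The deposited scanner files hold the mean and background intensity of each spot, which, per the file headers, are raw scanner brightness, and processed signals that Agilent Feature Extraction (9.1.3.1, or 10.7.3.1 for Myc tumors 2 to 7) had background-corrected and dye-normalized. Their log10 ratio, per the file headers, is red over green of the processed signals. The authors' log2 values in the deposited series matrix correlated with that ratio at an r of 0.329 to 0.927 across probes, which are not independent replicates, so they were read as red over green; their column medians ran from -0.374 to 0.445, and for their background and centring steps the sources used here give nothing. Limma is named in the submitters' processing notes.

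In R 4.3.3 (limma 3.58.1, statmod 1.5.0 and data.table, version 1.17.8), mean signals were corrected by normexp with an offset of 50 and loess-normalized within arrays. Outlier spots (0.0905%) were set missing. Probes well above background on at least 3 of 31 arrays were kept (31563 of 41174), and each gene was read at its brightest kept probe. Groups were fitted by lmFit with 1 coefficient each and eBayes, in 18 comparisons, and p-values were adjusted by Benjamini-Hochberg over all 21979 genes. The fit was tested on simulated data.

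The members, the role groups and the other lists were chosen with earlier results of these data known. Named were all members, with per-array values for the lowest p of each role and for members that moved unlike their role (others were added after their values were seen), and up to 4 genes of the other list for each of the first comparisons. Of that list Atr and Bard1 have no value here. The result of 1 list of cell markers is not reported here. The members were defined on Agilent's own log ratio, which is the alternative called Agilent's processed signals. Other alternatives were the series matrix, no background subtraction, centring on the median, Aquantile after loess, only the sample channel, other filters and probe rules, eBayes with trend, all 34 arrays, slide, day and replicate blocks, only the groups compared, at least 2-fold, and leaving out each array.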

Additional observations from a re-analysis of the deposited data

Results flagged for a closer look

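Myc tumor 5 lay apart from the other Myc tumors in 12 members, where the gap between it and the next array was wide for a group of this size. It was the lowest of the 7 each time. The values were -0.04 for Mcm6, -0.27 for Mcm7, -0.27 for Orc6 and -0.12 for Gins1. They were 0.45 for Rfc4, -0.04 for Rfc5, 0.59 for Prim1, 0.24 for Prim2 and 0.00 for Pole. For Lig1, Fanca and Uhrf1 they were 0.60, 0.59 and 0.45. Such a gap was looked for in 45 values, and chance gives it in about 1 of 20 for a value taken singly. These values are the members and their median on the same 7 arrays, so they are not independent. All 12 gaps come from the same array, and their number does not measure chance. The array's Myc probe read 1.04 and its Mki67 0.35, and the part of either in these values was not tested.

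The fall after switching off differed between the TGFα/Myc and the Myc livers in limma's test of the difference itself, by 1.79 for Brca1, 1.61 for Gins2 and 1.44 for Rpa2 at 4 weeks and by 1.84 for Gins2 at 12 weeks. At 4 weeks 3 of 44 members is no larger a share than the 7.31% of all genes called in this direction. At 12 weeks it was 1 member, beside 1.41%. None of these differences was called with median centring, Agilent's processed signals, the series matrix values, the sample channel alone or no background subtraction.

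On TGFα tumor 1, which entered no comparison, 43 members lay above the highest control, a count without the share of all genes beside it.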

How the results depend on the processing

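Single-gene results were recomputed only for members called in the main fit, so calls gained in other settings are not among them. Of these results, 3970 kept their direction and their call, 571 kept the direction but lost the call, and none changed direction. Median centring moved the median of all genes by 0.29 between Myc tumors and controls and by -0.30 to 0.50 over all comparisons, and the series matrix by 0.14 between livers off both for 4 weeks and TGFα/Myc tumors; other scalings moved it by under 0.1. Counts of members called that moved by over 1.5 times are given by setting, in the order 4 and 12 weeks where both times occur. No share of all genes called in those settings stands beside them.

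Against controls, Myc tumors gave 22 with scan day as a block and 22 within day 1 (40 otherwise). Against Myc tumors, livers off Myc gave 19 within slide 1 at 4 weeks, and 19 with median centring and 3 with the day block at 12 weeks (42 each otherwise). TGFα/Myc tumors against controls (0) gave 17 without background subtraction, 21 with processed signals, 18 with the matrix, 16 with the sample channel alone, 2 with a filter of at least 10 arrays, 18 without low-Myc tumors and 11 with the first scanner only. Livers off both against their tumors (11 and 5) gave 23 and 24 without background subtraction, 25 and 28 with processed signals, 0 and 0 with median centring, 22 and 24 with the matrix, 22 and 21 with the sample channel alone, 4 and 1 with all 34 arrays, 1 and 0 with slide as a random block, 0 and 0 with only the groups compared, 22 and 21 without low-Myc tumors, and 25 and 16 with the first scanner; at 12 weeks also 3 with the mean of probes and 0 with the day block. TGFα/Myc against Myc tumors (15) gave 8 without background subtraction, 5 with processed signals, 6 with the matrix, 3 with the day block, 1 with only these groups and 23 without low-Myc tumors. Livers off both for 4 weeks against controls (1) gave 0 at a change of at least 2-fold, with processed signals, median centring, the sample channel, all 34 arrays, slide block and only these groups, and 2 without low-Myc tumors. The matrix gave 1 in livers off TGFα for 4 weeks, 1 in those off for 12 weeks and 1 between them (0 each), and only the groups compared gave 1 between 12 and 4 weeks off both (0). The interactions (3 and 1) gave 0 and 0 with median centring, 1 and 3 with the sample channel, 0 and 0 with all 34 arrays, 0 and 0 with only these groups, 9 and 8 without low-Myc tumors, and 14 and 15 with the first scanner; at 12 weeks also 0 without a filter, 0 with Myc tumors 3 and 4 averaged, 0 with slide and 2 with day as block. The within-slide correlation was 0.435. The fits without low-Myc tumors and with the first scanner only were chosen after the data were seen. The causes of these changes were not tested.

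Whether replicate numbers pair the samples was not settled, since differently numbered arrays were not compared. Of 84 same-numbered pairs, 31 had deviations from their group means that correlated above 0.1 (-0.401 to 0.568). The replicate block gave 41 members for Myc tumors against controls, 10 for TGFα/Myc tumors against controls, 22 and 16 for livers off both against their tumors, 25 between the tumor kinds, and 11 and 9 for the interactions. Leaving out 1 array gave 36 to 42 members for Myc tumors against controls, 39 to 43 and 35 to 43 for livers off Myc, 0 to 6 for TGFα/Myc tumors, 1 to 14 and 0 to 10 for livers off both, 4 to 32 between tumor kinds, 0 to 15 and 0 to 13 for the interactions, 0 to 1 for livers off both for 4 weeks against controls, and 0 to 1 between 12 and 4 weeks off both. Cdc6 and Orc1 were dim in normal liver, which limits what their differences show. Cdc45, Chek1 and Pole2 were well above background on 1 of the 3 controls, and Exo1 on 2. In the reference they were so on 16, 14, 16 and 18 of 31 arrays, in that order, which limits their differences too.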
